A study of Mus musculus with 4 samples.

Results

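The genes described here are 9 tubulin genes and the stathmin gene Stmn1, chosen by name out of the 32285 genes counted. Of the tubulin genes, 4 encode α-tubulins (Tuba1a, Tuba1b, Tuba1c and Tuba4a) and 5 encode β-tubulins (Tubb2a, Tubb2b, Tubb4b, Tubb5 and Tubb6). They were followed across the stages of thymocyte development and between genotypes by single-cell RNA sequencing of mouse thymus with a 3′ kit, which counts each captured transcript once by a unique molecular identifier (UMI). The 2 control libraries came from mice homozygous for a floxed Tox4 allele (Tox4 f/f). The 2 conditional knockout (cKO) libraries came from Tox4 f/f mice that also carried the Lck-Cre transgene (Tox4 f/f;Lck-Cre). Both groups thus carried the floxed allele, in which exons 4 to 6 of Tox4 are flanked by loxP sites, on a C57BL/6 background, and only the cKO mice carried Cre. The Cre is driven by the proximal Lck promoter, which becomes active in double-negative (DN) thymocytes, so stages before that point and cells outside the T lineage are not a target. Per the study's methods the mice were littermates matched for gender and 6 to 8 weeks old. They were analysed as 2 pairs of a control and a cKO mouse, but the sources used here do not say which replicate numbers form a pair. Tox4 encodes a DNA-binding nuclear protein, and the comparison asks what its loss changes in developing T cells.

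The 4 libraries held 57354 cells and 204258388 UMIs, of which 33414 cells were kept, between 5648 and 12027 per library. The first replicate of each genotype had more cells over the mitochondrial limit of 10%, at 48.3% for control 1 and 46.1% for cKO 1, while the second replicates had 20.6% and 23.1%. Pairs of libraries shared between 36 and 70 cell barcodes. Stages were named from marker genes, and the summed DN markers, Il2ra and Hes1 among them, reached between 1933 and 2323 UMIs per 1000000 UMIs of the same cells (CPM) in DN cells and between 32.9 and 55.8 CPM in DP blasts, whose own markers summed to between 5654 and 6190 CPM. Tox4 itself was counted in double-positive (DP) cells at 72.1 and 74.3 CPM in the control libraries and at 56.9 and 61.0 CPM in the cKO libraries. The control and cKO values did not overlap, but the difference of -0.26 ± 0.10 (log2, standard error, n = 2 per group) did not pass the test (adjusted p = 0.146, edgeR). Since 3′ counting reads the end of the transcript and not the floxed exons, this level is a weak check of the deletion. With 2 libraries per group, p-values measure the spread between these libraries only.

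Microtubules are hollow polymers of α- and β-tubulin dimers. They build the mitotic spindle of dividing cells and, in T cells, turn toward the contact with an antigen-presenting cell. Vertebrates carry several genes for each subunit, called isotypes, whose proteins are close to identical except at their tails, and cells adjust tubulin mRNA stability to the amount of free dimer. Stathmin binds free dimers and promotes the shortening of microtubules, and is itself switched off by phosphorylation when cells enter mitosis. In the thymus, DN cells that pass β-selection become rapidly dividing DP blasts (DPbla), then resting DP cells that rearrange their T cell receptor α genes (DPre), then DP cells signalled through that receptor (DPsel), and lastly CD4 or CD8 single-positive cells (CD4SP, CD8SP).

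Where these genes lie was taken from GENCODE M21 on GRCm38. Tuba1a (chr15:98949837-98953703, minus strand), Tuba1b (chr15:98931425-98934565, minus strand) and Tuba1c (chr15:99029891-99038110, plus strand) are neighbours on chromosome 15, and Tubb2a (chr13:34074274-34078007) and Tubb2b (chr13:34126748-34130466), both on the minus strand, are neighbours on chromosome 13. Elsewhere lie Tuba4a on chromosome 1, Tubb4b on chromosome 2, Stmn1 on chromosome 4 and Tubb5 on chromosome 17. Promoter sequences of 300 bases, 250 before and 50 after the start of transcription, were available from RefSeq (GRCm38.p6) for 7 of the 10 genes. They were searched on both strands for CCAAT (the box bound by NF-Y), TTTGAA (the cell cycle homology region), TTCCCGC (an E2F site) and TATAAA. None of the marked matches overlapped another. Tubb4b held 5 CCAAT boxes and 1 TTTGAA. Of all 32851 promoters of this length, 37.4% held a CCAAT, 3.37% held 3 or more, and 17.9% held a TTTGAA. Tubb5 held 2 CCAAT boxes, Tuba1a and Tuba1c held 1 each, and Tuba1b, Tuba4a and Tubb2a held none. The E2F letters, found in 4.6% of all promoters, were in none of the 7, and TATAAA, found in 13.6%, was in those of Tubb2a and Tubb4b. These promoters are shown because the results below turn on their genes, Tuba1a and Tuba1b as the α isotypes that differed between genotypes and Tubb4b as the β isotype that varied most within the DP blasts. Capitals mark CCAAT, on this strand or as ATTGG, and TTTGAA.
Tuba1a (chr15:98953452-98953751, minus strand): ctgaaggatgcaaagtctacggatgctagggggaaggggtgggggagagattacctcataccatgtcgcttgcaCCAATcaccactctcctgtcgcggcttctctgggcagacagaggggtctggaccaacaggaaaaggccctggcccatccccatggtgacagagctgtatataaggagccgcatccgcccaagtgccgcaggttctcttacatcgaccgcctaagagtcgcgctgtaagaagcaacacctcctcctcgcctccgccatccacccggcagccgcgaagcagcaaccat
Tuba1b (chr15:98934341-98934640, minus strand): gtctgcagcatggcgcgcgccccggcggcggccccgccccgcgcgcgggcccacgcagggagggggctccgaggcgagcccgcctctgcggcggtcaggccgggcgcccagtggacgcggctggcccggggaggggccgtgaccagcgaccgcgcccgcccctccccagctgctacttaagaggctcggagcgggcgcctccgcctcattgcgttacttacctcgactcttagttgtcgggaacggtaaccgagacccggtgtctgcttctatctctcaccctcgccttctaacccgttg
Tubb4b (chr2:25224653-25224952, minus strand): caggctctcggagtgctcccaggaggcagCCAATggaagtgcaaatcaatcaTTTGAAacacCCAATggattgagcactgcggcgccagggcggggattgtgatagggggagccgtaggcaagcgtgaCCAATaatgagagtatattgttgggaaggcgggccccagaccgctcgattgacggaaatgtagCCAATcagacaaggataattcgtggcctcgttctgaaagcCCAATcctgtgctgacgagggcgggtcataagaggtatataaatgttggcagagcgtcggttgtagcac

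Because isotypes are so alike, reads near the end of one transcript can match another. In the last 500 bases of the transcripts, 56.3% of the 50-base words of Tuba1a, 63.6% of those of Tuba1b and 68.3% of those of Tuba1c also occurred in another gene, mostly in one of the other two or in a pseudogene, against 42.4% for Tubb2a, 35.3% for Tubb4b and 2.44% for Stmn1. Within the last 200 bases no word of Tuba1a or Tuba1b was shared and 5.3% of those of Tuba1c were. Counts of these isotypes, Tuba1c above all, can thus miss reads that fell further inside the transcript. 3′ UMI counting captures 1 tag per molecule whatever its length, so levels are compared between genes without division by length.

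The levels by stage follow as a description with no test, as the mean CPM of the 4 libraries with their range in parentheses, and with the stages taken from clusters built without the 10 genes. Among the α isotypes, Tuba1b, the main α-tubulin of dividing cells, was the most abundant in DPbla at 1761 CPM, with libraries between 1551 and 1868, and was 13.6-fold lower in DPre at 130 CPM. Its next levels were 556 CPM in CD8SP and 279 in DN, followed by 222 in DPsel and 215 in CD4SP, where DN overlapped DPsel and DPsel overlapped CD4SP. The DN level rested on the filter that removes the 2.5% of cells with the most and the fewest UMIs in each library. With those UMI outliers kept, Tuba1b was at 609 CPM in DN (528 to 729.8), which overlapped CD8SP at 646 CPM (606.5 to 685) and not DPsel. Tuba1c, a close copy of both neighbours, followed the same order at the top, with 145 CPM in DPbla (109 to 190) and 35.7 in CD8SP, and reached 10.0 CPM in DN.

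Tuba1a and Tuba4a ran differently from Tuba1b. Tuba1a, an isotype best known from neurons, was highest in DPsel at 216 CPM (197 to 240), ahead of DPbla at 171 CPM (119 to 244), whose libraries overlapped those of DPsel, and lowest in DN at 24.9 CPM (14.3 to 29.6), 8.64-fold below DPsel. The place of DPbla rested on the same filter: with the UMI outliers kept, Tuba1a was at 112 CPM there (83.1 to 149), which no longer overlapped DPsel at 218 CPM (198 to 244) and lay below the mean of CD4SP at 151 CPM and that of CD8SP at 129 CPM. Tuba4a, an α-tubulin whose message does not encode the final tyrosine, stood at 147 CPM in DPsel, 140.5 in CD4SP, 117 in CD8SP and 102.4 in DN, each overlapping the next, with gaps below it to 35.9 in DPbla and 27.7 in DPre. DN and DPre thus differed in opposite ways, Tuba1a being higher in DPre and Tuba4a higher in DN in all 4 libraries.

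Among the β isotypes, Tubb5, the common β-tubulin of dividing cells, was the most abundant in all 6 stages. It stood at 2367 CPM in DPbla (2048 to 2651) and between 573 CPM in CD4SP and 974 in CD8SP elsewhere, a range of 4.13-fold and the narrowest of the 9 genes with a level above 1 CPM. Tubb4b, which peaks in mitosis, was at 708 CPM in DPbla (529.5 to 857), at 188 CPM in CD8SP and between 97.1 and 134 CPM in the other 4 stages.

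The neighbouring pair Tubb2a and Tubb2b were highest in the DP compartment. Tubb2b was highest in DPre at 373 CPM (339 to 443), above DPbla at 176 CPM (162 to 189), and was 68.4 CPM in DPsel and 24.96 CPM in CD8SP, so its level in DPre was 14.9-fold that in CD8SP. Tubb2a stood at 219.7 CPM in DPbla and 192 CPM in DPre, which overlapped, and between 18.4 and 58.6 CPM in the other stages. Both genes, better known from neurons, thus stepped down between DPre and DPsel in each of the 4 libraries, while Tuba1a and Tuba4a stepped up. Tubb6 was not detectable as expressed in thymocytes at this depth: it had between 22 and 40 UMIs per library over all kept cells and a mean of at most 0.664 CPM in any stage, and it averaged 8.94 CPM in control and 4.62 in cKO libraries in cells of the mononuclear phagocyte system (MPS), on 3 to 5 UMIs per library.

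Stmn1 was the most abundant of the 10 genes in DPbla, at 3210.1 CPM (2827 to 3502), and was below Tubb5 in the 4 stages from DPre on. It was at 818 CPM in DN (663 to 983) and 669.8 in CD8SP, which overlapped, at 459.5 in DPsel and 438 in DPre, and lowest in CD4SP at 262 CPM, 12.3-fold under DPbla. DP blasts also hold more RNA, so the contrast per cell was wider. A mean DPbla cell carried 29.1 UMIs of Stmn1, 21.4 of Tubb5 and 15.9 of Tuba1b, and a mean DPre cell 1.24, 1.95 and 0.364. The filter on UMI totals left out many of the largest blasts. With the outliers kept, DPbla held 755 and 981 control cells against 514 and 747, and 1167 and 1817 cKO cells against 852 and 1442. The cells gained averaged between 24300 and 28200 UMIs. The values per DPbla cell thus hold for the filtered cells only. Of all Stmn1 UMIs of a library, between 64.7% and 68.4% came from DPbla cells, which were between 8.85% and 12% of its kept cells. With the UMI outliers kept, 7 of 54 levels of the 9 genes other than Tubb6 moved by over 1.5 times. Besides those of Tuba1b in DN and Tuba1a in DPbla, they were in DN those of Stmn1 (1236 CPM, no longer overlapping CD8SP), Tubb4b (217 CPM), Tuba4a (157 CPM) and Tuba1c (22.3 CPM), and in DPbla that of Tuba4a (61.4 CPM).

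**Figure D1:**
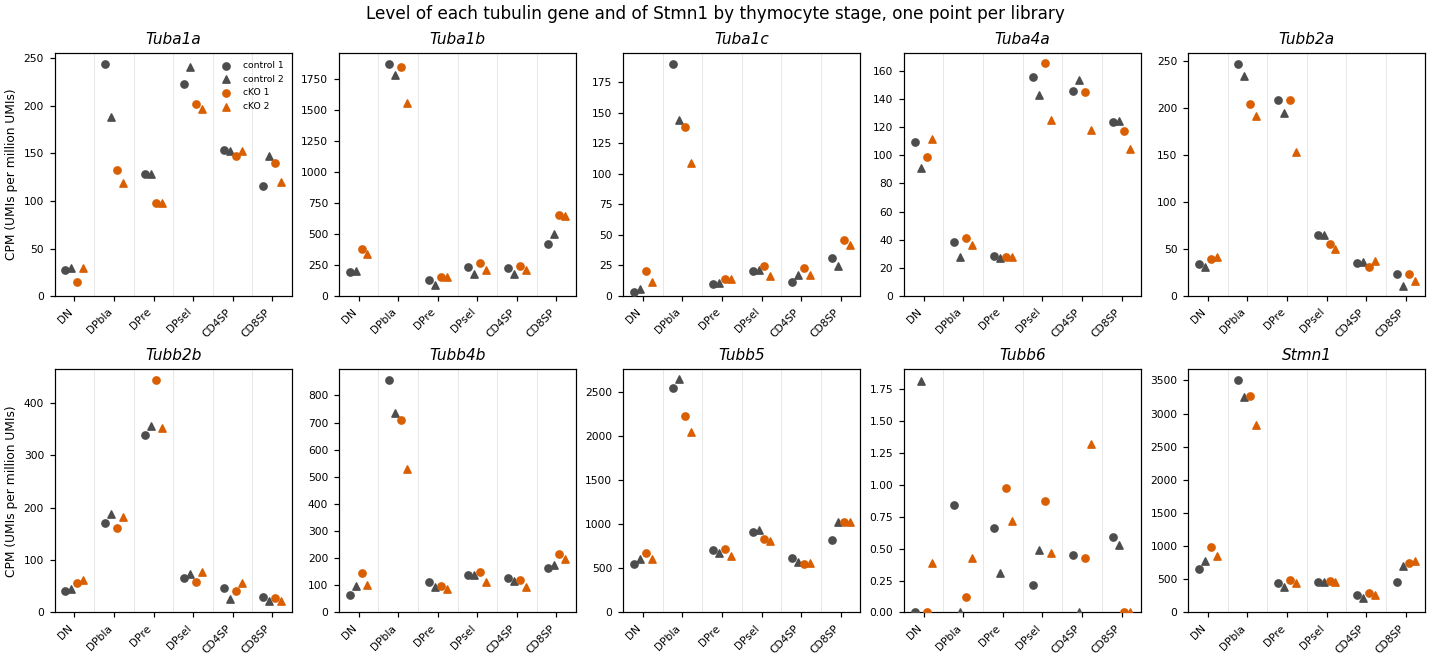
Level of each gene in CPM (vertical axis, linear from 0, a scale of its own for each gene) in 6 thymocyte stages (horizontal axis), with 1 point per library (circles replicate 1, triangles replicate 2, grey control, orange cKO). Tuba1b, Tuba1c, Tubb4b, Tubb5 and Stmn1 peaked in DPbla in every library, Tubb2b in DPre, and Tuba4a was lowest in DPbla and DPre.

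These orders left a different mix of isotypes in each stage. Tuba1b made up between 79.8% and 85.5% of the α-tubulin UMIs in DPbla, but between 35.2% and 52.4% in DPre, where Tuba1a contributed between 33.4% and 50.1%. Tuba4a contributed between 1.28% and 1.98% in DPbla and between 22.8% and 25.1% in DPsel. Among the β-tubulin UMIs, Tubb5 contributed between 48.8% and 51.9% in DPre and at least 66.6% in each library of every other stage. Tubb2a and Tubb2b filled most of the rest in DPre, where Tubb2b alone held between 24.7% and 30.2%. α-Tubulin UMIs numbered between 0.195 and 0.234 per β-tubulin UMI in DPre, against between 0.562 and 0.653 in DPbla, so β messages exceeded α messages most in DPre.

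**Figure D2:**
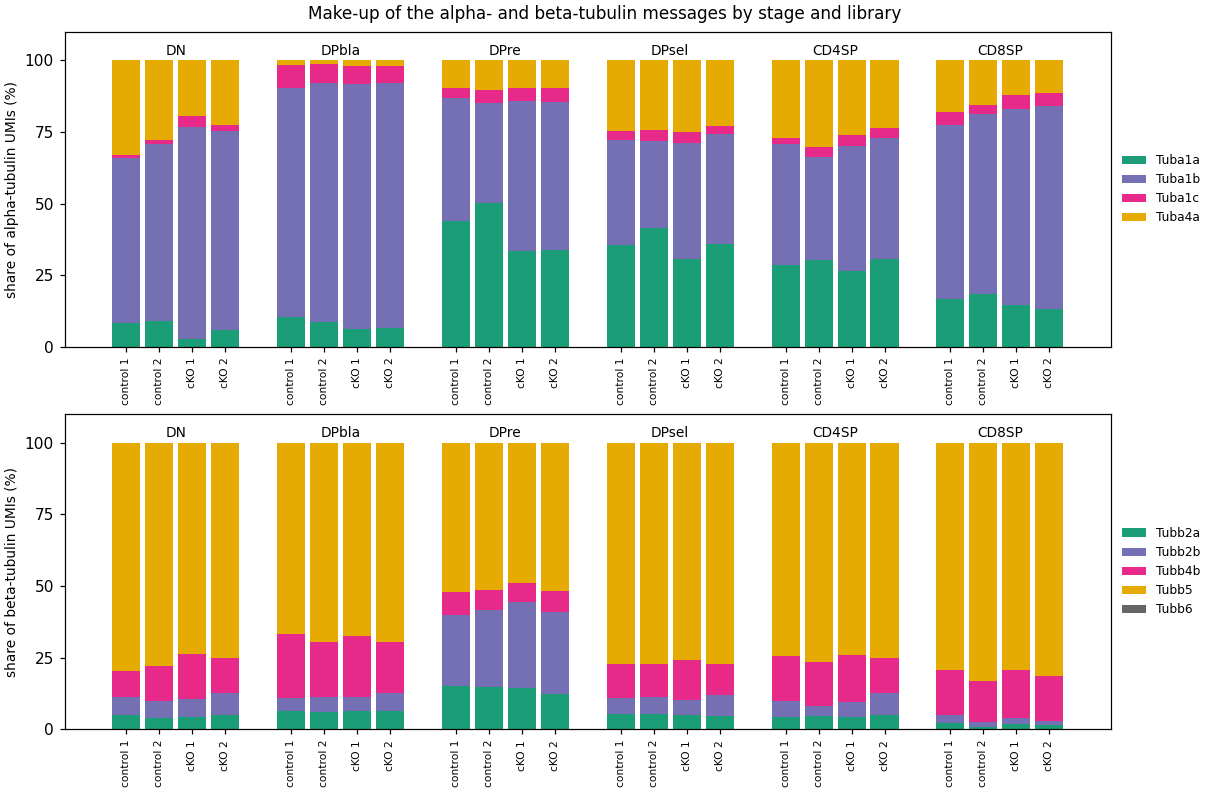
Share of each gene (%, stacked to 100) in the α-tubulin UMIs (upper panel) and in the β-tubulin UMIs (lower panel), with 1 bar per library, grouped by stage. Tuba1b fills most of the α bars in DPbla (79.8% to 85.5%) and Tubb2b widens in the β bars of DPre (24.7% to 30.2%).

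Within the DP blasts the genes differed by position in the cell cycle, again as a description. Phases were scored from lists without Tubb4b, on cells thinned to 1000 UMIs. In DPbla, the level of Tuba1c in G2/M cells over that in S cells was 46.5 in control 1, 22.9 in control 2, 24.1 in cKO 1 and 16.4 in cKO 2. The same ratio was 4.99, 4.03, 4.89 and 4.34 for Tubb4b and 2.75, 2.54, 2.52 and 1.96 for Tuba1a in the same order. It lay between 1.38 and 1.7 for Tuba1b, between 1.34 and 1.57 for Tubb5 and between 1.19 and 1.3 for Stmn1. The step from S to G2/M was thus steepest for Tuba1c, Tubb4b and Tuba1a in each library. Tuba1a was also higher in the few G1 blasts than in S blasts in 3 of 4 libraries. The level in S over that in G1 was 0.598, 0.388, 0.637 and 1.03, on 11 to 35 UMIs per library in G1. In these G1 blasts Tuba1a made up between 36.7% and 61.4% of α-tubulin UMIs and Tubb2b between 21.6% and 34.6% of β-tubulin UMIs. Both shares were nearer those of DPre than those of all blasts. Median UMI totals lay between 3646 and 4492, against between 8334 and 10222 in S blasts. Whether these cells belong to DPre was not tested.

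The 4 clusters that form DPbla separated these patterns further. They are named here by their leading genes: c12 by Hells, Dtl and Cdc6, which act at the start of replication, c13 by Pclaf and Rrm2 of S phase, c9 by Mki67, Cenpf and Prc1, and c11 by Cdc20 and Ccnb2, which act in mitosis. Cluster c11 also carried DPre markers: its mean log2 level above the other clusters was 1.45 for the DPbla list and 1.29 for the DPre list. The DPre list gave 0.358 in c9, -0.0169 in c12 and -0.302 in c13. A median cell of c11 held 1.64 times the median UMIs of its library, against between 3.02 and 3.45 times in the other blast clusters. Tuba1b was highest in c9, between 2638 and 3121 CPM, and lower in c11, between 692 and 907 CPM. Tuba1a went the other way, with between 117 and 205 CPM in c9 and between 281 and 509 CPM in c11. Tubb4b was high in both, between 832 and 1296 CPM, and between 219 and 359 CPM in c12 and c13. Stmn1 ran with Tuba1b and Tubb5, peaking in c9 between 3720.4 and 4618 CPM.

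**Figure D3:**
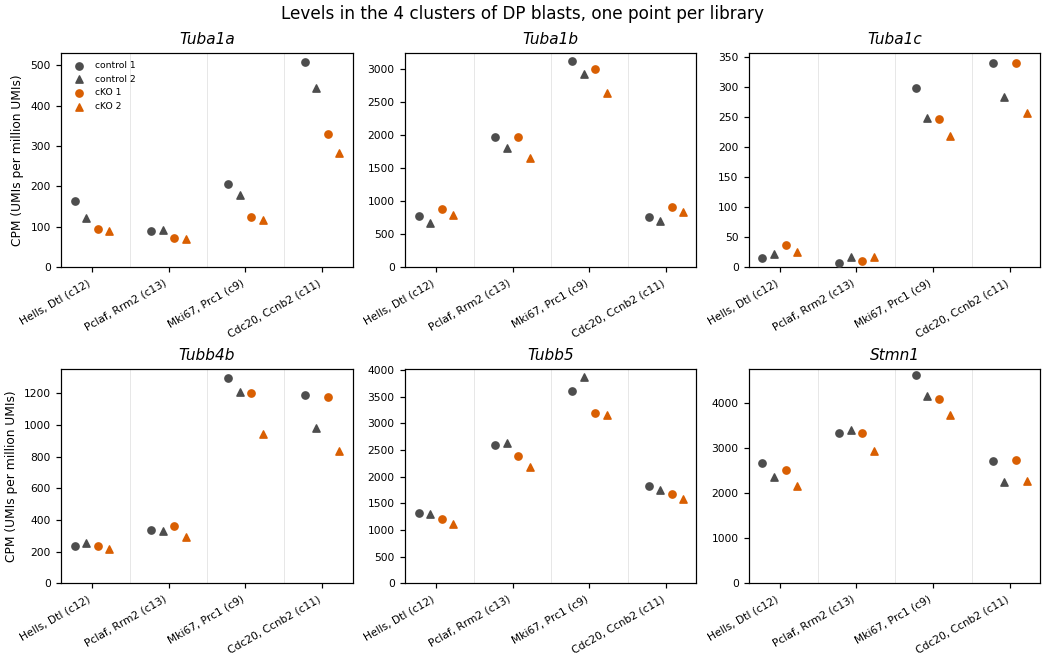
Levels in CPM (vertical axis, linear from 0) of 6 genes in the 4 clusters of DP blasts (horizontal axis, named by leading genes), 1 point per library. Tuba1b, Tubb5 and Stmn1 peaked in c9, Tuba1a peaked in c11 and was lower in both cKO libraries than in both control libraries in each of the 4 clusters.

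The genes most like each member were those with the highest Pearson r of log2 CPM over 24 values (6 stages in 4 libraries, so that values of a library share its depth and values of a stage its cells), among 8135 genes. For Stmn1 they were H2afz, a histone variant gene (r = 0.994), Cks2 (0.986) and Ccdc34 (0.979). Tuba1b ran closest with Pcna, the replication clamp (0.974), Pkmyt1 (0.971) and Ppia (0.97), and Tubb5 with Dbf4, an activator of replication origins (0.984). Tuba1c and Tubb4b named each other (0.971). Tubb2b ran closest with the cystine transporter gene Slc7a11 (0.979) and Tubb2a with Phlda1 (0.966). Tuba4a ran with Gpr65 (0.98), Bcl2 (0.978) and Il7r (0.971), the latter 2 being survival genes of resting T cells, and Tuba1a with Cfl1, the actin-severing cofilin (0.934).

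Between genotypes, 2 of the 10 genes were called, in opposite directions and in different stages. Tuba1a was lower in cKO blasts and Tuba1b was higher in cKO DN cells. In DPbla, Tuba1a stood at 244 and 188 CPM in the control libraries and at 132 and 119 CPM in the cKO libraries. The groups did not overlap, and the difference of -0.73 ± 0.12 (log2, SE, n = 2 per group) passed the test (adjusted p = 0.00337, edgeR). Tuba1a was the only one of 9 members tested that was called in DPbla, where 2.96% of all genes tested were called. Tubb6 was too low to be tested in any of the 6 stages. The call was lost without cKO replicate 2, where the difference was -0.65 (adjusted p = 0.0787, edgeR).

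The Tuba1a difference was also seen inside the blasts. In c11 the levels were 509 and 445 CPM in control and 329.8 and 281 in cKO libraries, a difference of -0.64 ± 0.12 (adjusted p = 0.00209, edgeR). It was -0.63 ± 0.13 in c9 (adjusted p = 0.00915, edgeR) and -0.55 ± 0.15 in c12 (adjusted p = 0.0279, edgeR). In c13 the levels of 88.2 and 91.5 CPM against 71.0 and 70.6 CPM did not overlap, but the difference of -0.32 ± 0.15 did not pass (adjusted p = 0.487, edgeR). The c11 call was lost without either cKO replicate or control replicate 1 (adjusted p between 0.0977 and 0.742, edgeR) and with DESeq2 (adjusted p = 0.055). The c9 call was lost without cKO replicate 2 (adjusted p = 0.11, edgeR) or control replicate 1 (adjusted p = 0.164, edgeR), as was that in c12 (adjusted p = 0.147 and 0.448, edgeR). In the main fit, without any of these changes, no other member was called in these clusters. There 0.495% (c11), 1.01% (c9), 3.57% (c12) and 0.83% (c13) of genes were called. Some alternatives called more members, as listed below under the processing. By phase, Tuba1a differed by -0.72 ± 0.12 in G2/M cells (adjusted p = 0.00797, edgeR, 1.19% of genes called) and by -0.44 ± 0.14 in S cells (adjusted p = 0.121, edgeR, 1.36% called). With a replicate block, members were called in S cells as well, as given below under the processing. Whether the effect differed between the phases was not tested. The G2/M call was lost without cKO replicate 2 (-0.60, adjusted p = 0.0958, edgeR). The G2/M share of blasts was 69.5% and 64.2% in control and 61.4% and 63.9% in cKO libraries. The summed level of the DPre markers in blasts was 6393 and 5397 CPM against 4581 and 4263 CPM. This list holds Cd8a and Cd8b1, which the study reports as lower in several cKO clusters. In DPre cells its sum was 12650 and 11240 CPM against 10370 and 10400 CPM. It was also lower in both cKO libraries in DN and DPsel, and overlapped in CD4SP and CD8SP. The mix of clusters differed too. Of 514 and 747 control blasts, 171 and 195 were in c11, where Tuba1a was highest, and 84 and 162 in c12. Of 852 and 1442 cKO blasts, 198 and 318 were in c11 and 207 and 410 in c12. The part of these in the result was not tested.

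The other α and β isotypes in DPbla gave smaller differences that did not pass. Tubb5 had 2543 and 2651 CPM against 2227 and 2048 CPM (-0.23 ± 0.11, adjusted p = 0.332, edgeR). Tubb4b had 857 and 736 CPM against 708 and 529.5 CPM (-0.31 ± 0.13, adjusted p = 0.226, edgeR), and Tuba1c had 189.6 and 144 CPM against 138 and 109 CPM (-0.38 ± 0.13, adjusted p = 0.144, edgeR). These genes and Tubb2a were each lower in both cKO libraries than in both control libraries. Such a gap carries little weight, since 2 against 2 libraries that are apart give p = 0.333 in an exact two-sided permutation test. How many of all genes tested were apart in this way was not counted, in DPbla or in any other stage. Tuba1b overlapped, at 1868 and 1779.7 CPM against 1845 and 1551 CPM (-0.05 ± 0.12, adjusted p = 0.879, edgeR), as did Stmn1 (-0.10 ± 0.12, adjusted p = 0.757, edgeR). With the replicate number as a block, Tuba1c (-0.38, adjusted p = 0.000836, edgeR) and Tubb4b (-0.33, adjusted p = 0.00337, edgeR) were called as well, where the block called 1183 genes in all against 319.

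In DN cells, which numbered 74 and 114 in control and 157 and 316 in cKO libraries, Tuba1b stood at 191 and 202 CPM against 379 and 342 CPM. The groups were apart and the difference of 0.89 ± 0.12 passed (adjusted p = 0.0417, edgeR). It was the only one of 9 members tested to be called, where 3 of 8831 genes (0.034%) were. The summed level of the 10 proliferation markers used for DPbla was also higher in these cKO DN cells, at 392 and 445 CPM in control and 871 and 778 CPM in cKO libraries, and the share of DN cells in S or G2/M was 52.1% and 51.8% against 58.1% and 57.2%. Erythroid markers summed to 2.99 and 12.7 CPM in control and 219 and 19.1 CPM in cKO DN cells. Their part in the result was not tested. The call rested on the filter on UMI totals. With the outliers kept, 26 and 29 more control and 40 and 32 more cKO cells joined DN, Tuba1b was at 627.5 and 528 CPM in control and 729.8 and 551 CPM in cKO libraries, and the difference shrank to 0.17 (adjusted p = 1, edgeR). The proliferation markers then summed to 1433 and 1015 CPM in control and 1678 and 1323 CPM in cKO libraries. Split by phase, Tuba1b stood at 252 and 313 CPM in control and 505 and 457 CPM in cKO DN cells in S or G2/M (0.77 ± 0.16, adjusted p = 0.0516, edgeR), where 0.054% of genes were called (4 of 7412). In DN cells in G1 it stood at 127 and 89.7 CPM against 185 and 148 CPM (0.67 ± 0.21, adjusted p = 0.7, edgeR). The groups did not overlap in either phase and neither difference passed. In G1, 0 of 6669 genes (0%) were called, 333 had an unadjusted p under 0.05, and DESeq2 called 0.

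In DPre, the pair of α isotypes differed in opposite directions, and neither difference passed the test. Tuba1b had 125 and 90.6 CPM in control and 153 and 149.6 CPM in cKO libraries (0.53 ± 0.13, adjusted p = 0.0553, edgeR), and Tuba1a had 128 and 129 CPM against 97.6 and 97.9 CPM (-0.36 ± 0.10, adjusted p = 0.0907, edgeR). Neither gene overlapped between genotypes. No member was called in DPre, where 1.59% of genes were. With the replicate number as a block, Tuba1b (0.55, adjusted p = 3.79e-07), Tuba1a (-0.36, adjusted p = 0.00425), Stmn1 (0.22, adjusted p = 0.0425) and Tubb2b (0.22, adjusted p = 0.044) were called by edgeR, where the block called 1080 genes in all against 187. DESeq2 called Tuba1b (0.53, adjusted p = 0.0251). Among DPre cells scored in S or G2/M, Tuba1b was called (0.53 ± 0.13, adjusted p = 0.0244, edgeR, 2.02% of genes called), while in G1 it was not (0.50 ± 0.13, adjusted p = 0.0618, edgeR, 1.48% called), and the S or G2/M call was lost without control replicate 2 (0.30, adjusted p = 0.525, edgeR) and with DESeq2 (0.53, adjusted p = 0.115). The score put 45.6% and 41.1% of control and 54.8% and 51.8% of cKO DPre cells in S or G2/M, but the levels of Stmn1 and Tubb4b differed little between the phases: S over G1 lay between 0.972 and 1.23 for Stmn1 and G2/M over S between 0.874 and 1.12 for Tubb4b. No cycling is read from the phase calls in DPre. The proliferation markers summed to 266 and 187 CPM in control and 354 and 317 CPM in cKO DPre cells, and blasts were 9.10% and 8.85% of kept control cells and 11.7% and 12% of kept cKO cells. Their part in the difference was not tested.

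From DPsel on, no member was called in the main fit, which has no replicate block. In CD8SP, alternatives other than the block also gave calls, as listed below under the processing. In DPsel 0.0186% of genes were called (2 of 10747), and the members' differences lay between -0.30 for Tubb2a and 0.24 for Tuba1b. In CD4SP 0.271% of genes were called, and Tuba1a stood within 147 and 153 CPM in all 4 libraries. Among CD8SP cells, where 0.532% were called, Tuba1b had 418 and 502 CPM against 656 and 648 CPM (0.48 ± 0.11, adjusted p = 0.0566, edgeR), and the proliferation markers summed to 789 and 1167 CPM against 1478 and 1409 CPM. With the UMI outliers kept, the CD8SP difference of Tuba1b was 0.15 (adjusted p = 0.82, edgeR). With the replicate block, Tuba1b (0.48, adjusted p = 0.000243, edgeR) and Stmn1 (0.39, adjusted p = 0.00682, edgeR) were called in CD8SP, where 176 genes were in all against 48. In MPS cells, which lie outside the Cre's target, 0 of 6715 genes (0%) were called, 158 had an unadjusted p under 0.05 and DESeq2 called 0. Tuba1b there differed by 0.55 ± 0.31 and Tuba1a by -0.37 ± 0.32 on the log2 scale (both adjusted p = 1, edgeR). These droplets also carried thymocyte RNA: the DPre markers summed to 4887 and 5924 CPM in control and 2852 and 5520 CPM in cKO MPS cells, and the proliferation markers to 541 and 301 CPM against 842 and 635 CPM. Their part in the differences was not tested.

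Summed over all DP cells, Tuba1b had 598 and 544 CPM in control and 816 and 676 CPM in cKO libraries (0.44 ± 0.10, adjusted p = 0.0302, edgeR) and Tuba1a had 182 and 171 CPM against 132 and 125 CPM (-0.40 ± 0.09, adjusted p = 0.0232, edgeR), where 4.99% of genes were called. Over all kept cells they differed by 0.41 ± 0.09 (adjusted p = 0.0495, edgeR) and -0.38 ± 0.09 (adjusted p = 0.0481, edgeR), with 2.62% of genes called. Stmn1, at 1229 and 1134 CPM against 1533 and 1319 CPM in all DP cells, did not overlap between genotypes there and did not pass (0.32 ± 0.09, adjusted p = 0.0714, edgeR). It passed with DESeq2 (adjusted p = 0.0313) and, by edgeR, without a filter on low counts (adjusted p = 0.00359), without cKO replicate 2 (adjusted p = 0.0189) and without control replicate 1 (adjusted p = 0.0458). The part of the larger share of blasts in the cKO libraries in these sums was not tested. In all DP cells the Tuba1b call was lost without cKO replicate 1 (0.28, adjusted p = 0.13, edgeR), with a mitochondrial limit of 5% (0.30, adjusted p = 0.0723, edgeR) and with the UMI outliers kept (0.20, adjusted p = 0.483, edgeR). The Tuba1a call was lost without cKO replicate 2 (-0.35, adjusted p = 0.06, edgeR) and without control replicate 1 (-0.37, adjusted p = 0.103, edgeR). Over all kept cells both calls were lost without control replicate 2 (Tuba1b 0.37, adjusted p = 0.104, and Tuba1a -0.39, adjusted p = 0.0831, edgeR), with the UMI outliers kept (0.20, adjusted p = 0.478, and -0.42, adjusted p = 0.0771, edgeR) and with the 5% limit (0.29, adjusted p = 0.0975, and -0.44, adjusted p = 0.0846, edgeR). The Tuba1b call there was also lost without cKO replicate 1 (adjusted p = 0.111, edgeR), and the Tuba1a call without cKO replicate 2 (adjusted p = 0.136, edgeR) or control replicate 1 (adjusted p = 0.14, edgeR).

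**Figure D4:**
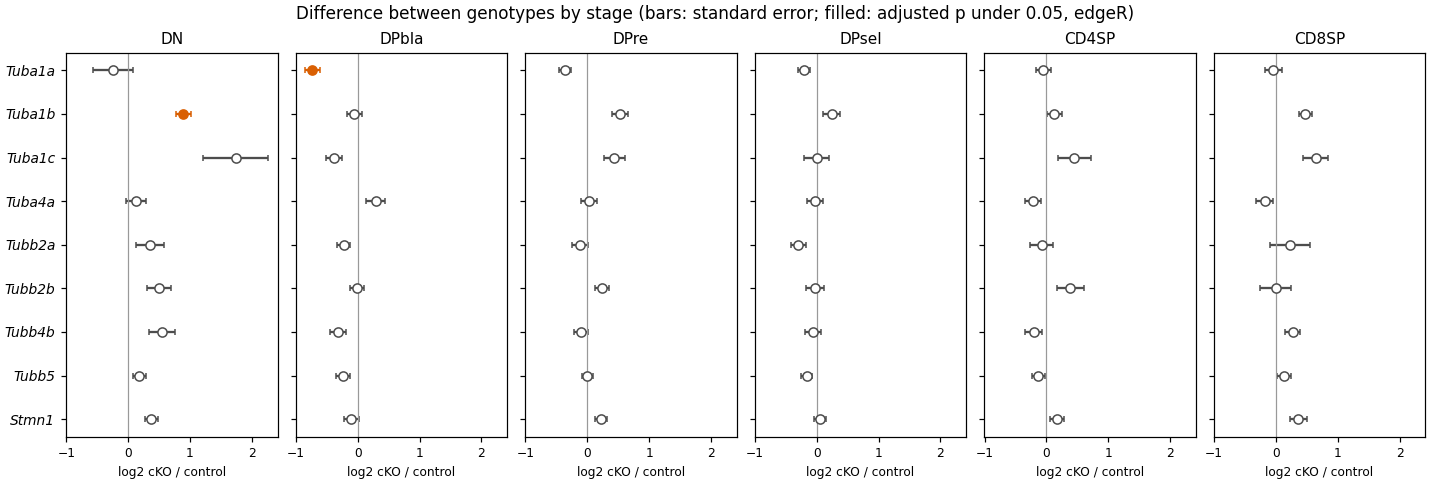
Difference between genotypes as log2 of cKO over control (horizontal axis) for 9 genes (rows) in 6 stages (panels), from edgeR fits on 2 libraries per group, with bars of 1 standard error. Filled orange points passed an adjusted p under 0.05: Tuba1b in DN (0.89) and Tuba1a in DPbla (-0.73).

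A gene called in one stage and not in another need not differ between them, so the difference of the genotype effect from that in DPbla was tested directly, with the library as a term. Between DN and DPbla it passed for 5 of 9 members tested, where 1.15% of genes were called. They were Tuba1b (0.98 ± 0.13, adjusted p = 4.33e-06), Tubb4b (0.88 ± 0.17, adjusted p = 0.00406), Tuba1c (2.13 ± 0.47, adjusted p = 0.0121), Stmn1 (0.51 ± 0.11, adjusted p = 0.0121) and Tubb5 (0.45 ± 0.11, adjusted p = 0.0296), all by edgeR. All 5 peaked in DPbla in every library, and their effects were more positive in DN than in DPbla. Tuba1c rests on 2 and 6 UMIs in control and 30 and 29 in cKO DN cells. Between DPre and DPbla it passed for Tuba1b (0.61 ± 0.12, adjusted p = 0.00659, edgeR) and Tuba1c (0.82 ± 0.16, adjusted p = 0.00702, edgeR), with 0.716% of genes called. Between DPsel and DPbla it passed for no member, with 0.476% called, and Tuba1a came closest (0.51 ± 0.12, adjusted p = 0.0561, edgeR). Among cells scored in S or G2/M alone the same 5 genes passed between DN and DPbla. With the UMI outliers kept, none of the 5 passed between DN and DPbla, where Tuba1b came to 0.29 (adjusted p = 0.0683, edgeR), and between DPre and DPbla Tuba1b passed (0.69, adjusted p = 0.00978, edgeR) and Tuba1c did not (0.69, adjusted p = 0.145, edgeR). With a 5% mitochondrial limit Tuba1c did not pass between DPre and DPbla either (0.44, adjusted p = 0.82, edgeR). Between DN and DPbla, only Tuba1b passed without control replicate 1, Tuba1b and Tubb4b without cKO replicate 1, and these 2 with Tuba1c without cKO replicate 2. Without cKO replicate 2 neither Tuba1b (0.50, adjusted p = 0.12, edgeR) nor Tuba1c (0.61, adjusted p = 0.147, edgeR) passed between DPre and DPbla, where Tubb2b did (0.50, adjusted p = 0.027, edgeR). Without control replicate 2, Tuba1b (0.39, adjusted p = 0.153, edgeR) did not pass there.

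The α mix differed in the same sense. In DPre, Tuba1b was 42.8% and 35.2% of α-tubulin UMIs in control and 52.4% and 51.7% in cKO libraries, 13.1 points higher, and Tuba1a was 43.9% and 50.1% against 33.4% and 33.8%. Tuba1b's share was higher by 11.7 points in DN, 4.0 in DPbla, 5.85 in DPsel and 7.82 in CD8SP with no overlap, and by 3.79 in CD4SP, where the groups overlapped. The exact two-sided permutation test of 2 against 2 libraries gave p = 0.333 wherever the groups were apart, which is the smallest it can give, so no share can pass. The β mix held closer: Tubb5's share differed by 0.319 points in DPbla and -1.28 in DPre, both overlapping, and by -4.29 points in DN, where it was apart. α-Tubulin UMIs per β-tubulin UMI averaged 0.452 in control DN cells and 0.584 in cKO DN cells. In DPre the averages were 0.204 and 0.217, and the libraries overlapped.

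Of 142 other genes of the microtubule system in 8 lists, 3 of 116 tested were called in DPbla (2.59%, against 2.96% of all genes tested), 2 of 117 in DPre (1.71% against 1.59%), 3 of 107 in CD8SP (2.8% against 0.532%) and none in DN, DPsel or CD4SP. In DPbla and DPre these shares lay near those of all genes. The calls in these lists come from the main fit only and were not followed through the alternatives. Among the other tubulins, Tube1, which encodes the ε-tubulin of centrioles, was lower in cKO libraries in DPbla, at 113 and 129.7 CPM against 71.6 and 67.8 CPM (-0.76 ± 0.12, adjusted p = 0.0026, edgeR), and in DPre, at 177 and 193 CPM against 129 and 132 CPM (-0.47 ± 0.10, adjusted p = 0.0298, edgeR). Tubb3, a β isotype best known from neurons, was higher in cKO blasts, at 6.07 and 5.42 CPM against 2.32 and 1.67 CPM (1.59 ± 0.33, adjusted p = 0.0149, edgeR). The tubulin folding list had 1 of 21 called in DPbla, the chaperonin subunit gene Cct6a (0.47 ± 0.11, adjusted p = 0.025, edgeR), and its median difference there was 0.0184.

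Among microtubule-associated and plus-end proteins, Nusap1, a spindle protein gene, was higher in DPre (0.88 ± 0.17, adjusted p = 0.0176, edgeR) and in CD8SP (1.40 ± 0.19, adjusted p = 0.00143, edgeR), where Hmmr (1.31 ± 0.23) and the kinesin gene Kif11 (1.002 ± 0.194) were called as well. Of the 32 genes of this list tested in DPre, 28 had a positive difference, with a median of 0.216 against -0.000146 over all genes tested. In DN the difference was positive for 21 of 27, with a median of 0.235, and in DPsel for 24 of 30, with a median of 0.218. The proliferation markers were higher in both cKO libraries in these 3 stages, in CD4SP and in CD8SP. In DPsel they summed to 302 and 289.5 CPM in cKO against 218 and 180.5 CPM in control libraries. In CD4SP the sums were 249 and 227 CPM against 204 and 159 CPM. In CD8SP they were 1478 and 1409 CPM against 789 and 1167 CPM. Their part was not tested. In DPbla none of 31 was called and the median was -0.0339. The lists of other stathmins and microtubule destabilisers, of tubulin-modifying enzymes, of the γ-tubulin ring complex and of genes that act in tubulin mRNA autoregulation had no member called in any of the 6 stages. Of the regulators of stathmin, E2f1 was called over all DP cells (0.57 ± 0.12, adjusted p = 0.017, edgeR) and none in any of the 6 stages.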

How the data were processed

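Thymocytes of 2 control and 2 cKO mice were profiled with a 10x Genomics 3′ kit. The authors deposited raw UMI counts per gene and cell, made with Cell Ranger 6.1.1 on mm10 per the labels and methods, as filtered matrices of called cells without normalization. Cells with under 200 genes, in the highest or lowest 2.5% of UMI totals of their library, or with over 10% mitochondrial UMIs were left out. Scrublet (scanpy 1.11.5) scored doublets at an expected rate of 8%, and the top 5% per library were removed. Cells were clustered (3000 variable genes without the 10 genes described here and without the microtubule lists, 30 components, 20 neighbours, leidenalg 0.10.2, resolution 1) and clusters were named from marker lists; names are rebuilt and can differ from the study's. A cluster of cycling cells with low UMI totals (c7; 181, 273, 528 and 662 cells in control 1 and 2 and cKO 1 and 2) stayed unnamed by a rule set after the clusters were seen.

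UMI counts were summed per library and stage where each library had at least 30 cells (20 for a phase), scaled to CPM, and tested with edgeR 4.0.16 (R 4.3.3; quasi-likelihood F test, TMM, filterByExpr), with Benjamini-Hochberg adjustment over all genes tested and calls at an adjusted p under 0.05. Standard errors are the log2 fold change over the square root of F. Phases came from Seurat 5.3.0 lists (43 S and 53 G2/M genes, without Tubb4b) on cells thinned to 1000 UMIs. Likeness used log2(CPM + 5) over genes with at least 20 CPM. Scripts were tested on simulated data. The alternatives were DESeq2 1.42.0, edgeR with DESeq2's size factors, testing every gene with a count, a replicate block, leaving out each library, a 5% mitochondrial limit, UMI outliers or doublets kept, and other clusterings. The members, lists and tests were chosen with earlier results of these data known. Named genes are the 10 members, Tox4, the 3 genes most like each member, and of each microtubule list up to 3 called genes with the largest change and no overlap between genotypes.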

Additional observations from a re-analysis of the deposited data

Results flagged for a closer look

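The effect of genotype differed between stages for 5 of the 9 members tested, by edgeR's test of the stage by genotype term. Relative to DPbla, where 125 of 10860 genes (1.15%) were called for DN and 84 of 11739 (0.716%) for DPre, the effect in DN was more positive by 0.98 on the log2 scale for Tuba1b, 0.88 for Tubb4b, 2.13 for Tuba1c, 0.51 for Stmn1 and 0.45 for Tubb5. Tuba1b was higher in cKO DN cells (0.89) and differed little in cKO blasts (-0.05), whereas Tubb5 was 0.18 in DN and -0.23 in DPbla, so its term joins a positive and a negative difference that did not pass on their own. Relative to DPbla, the effect in DPre was more positive by 0.61 for Tuba1b and 0.82 for Tuba1c. The Tuba1b term between DN and DPbla passed with each library left out in turn, but not with the UMI outliers kept (0.29, adjusted p = 0.0683, edgeR), where none of the other 4 passed either (adjusted p between 0.197 and 0.449, edgeR). Those of Tubb4b, Tuba1c, Stmn1 and Tubb5 did not pass without control replicate 1 (adjusted p = 0.119, 0.119, 0.141 and 0.0768, edgeR). Those of Stmn1 and Tubb5 did not pass without cKO replicate 1 (adjusted p = 0.162 and 0.328, edgeR) or cKO replicate 2 (adjusted p = 0.31 and 0.429, edgeR) either, nor did that of Tuba1c without cKO replicate 1 (adjusted p = 0.0641, edgeR). The proliferation markers, which summed to more in cKO than in control libraries in DN and DPre and to less in DPbla (6190 and 6063 CPM in control, 5918 and 5654 CPM in cKO), moved in the same sense. Their part was not tested.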

How the results depend on the processing

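Of the 18 differences and terms of single genes called, none changed direction under the alternatives run for it. Phases were not refitted with other cell filters or clusterings, the terms between stages not with DESeq2, its size factors or a replicate block, and the 4 blast clusters only with DESeq2, without the filter on low counts and without each library. DESeq2 gave no adjusted p for Tuba1a in c12. The number of members called moved as follows, with the number of all genes called where it is given in brackets, which moved too. With DESeq2's size factors in edgeR, 1 member was called in DN cells in S or G2/M (6 genes against 4). With DESeq2, 1 was called in DPre (172 against 187), 0 in DPre cells in S or G2/M (83 against 216) and 0 in c11 (4 against 41). With the UMI outliers kept, 0 were called in DN (0 against 3), 1 over all DP cells (285 against 641), 0 over all kept cells (58 against 364), 0 for the term between DN and DPbla (56 against 125), 1 for that between DPre and DPbla (23 against 84) and 1 for that between DPsel and DPbla (22 against 54). With a mitochondrial limit of 5% 1 was called over all DP cells (319), 0 over all kept cells (83) and 1 for the DPre term (14). The terms and clusters were run with these alternatives after the data were seen. Without a filter on low counts, 2 were called in DN (82 against 3), DPbla (615 against 319), DPre (616 against 187) and c12 (350 against 312), and 1 in CD8SP (113 against 48), DN cells in S or G2/M (36 against 4), DPre cells in G1 (374 against 160) and the DPsel term (169 against 54). Over all DP cells and over all kept cells 3 members were called, with Stmn1 added, under DESeq2, without the filter and with the replicate block. Leaving out 1 library at a time gave 1 to 3 members called in DN (33 to 70 genes), 0 to 2 in DPbla (32 to 531), 0 to 1 in DPre (80 to 317), 0 to 2 in CD8SP (61 to 135), 1 to 2 over all DP cells (584 to 738), 0 to 2 over all kept cells (308 to 598), 0 to 4 in DN cells in S or G2/M (0 to 86), 0 to 1 in DPbla cells in G2/M (30 to 246), in DPre cells in G1 (0 to 172) and in those in S or G2/M (161 to 294), 0 to 2 in c9 (27 to 110), 0 to 1 in c11 (3 to 37), 1 to 5 for the term between DN and DPbla (69 to 176), 1 to 2 for that between DPre and DPbla (63 to 153) and 0 to 1 for that between DPsel and DPbla (0 to 197). These alternatives use 1 library in a group, which is assumed to vary like the others. The difference in Tubb5's share in CD4SP was 0.665 points at a mitochondrial limit of 5% against -1.08. That limit left too few control DN cells for a value.

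The study describes 2 pairs of mice, and the sources used here do not say which replicate numbers form a pair. Deviations from the group mean correlated between libraries of the same number at r = 0.22 in DPbla and 0.214 in DPre (over genes). With a replicate block, 3 members were called in DPbla (Tuba1a, Tuba1c and Tubb4b; 1183 genes in all against 319), 4 in DPre (Tuba1b, Tuba1a, Stmn1 and Tubb2b; 1080 against 187), 2 in CD8SP (Tuba1b and Stmn1; 176 against 48), 4 in DPbla cells in S (692 against 128) and 4 in those in G2/M (814 against 121), 3 in DPre cells in G1 (733 against 160), 2 in those in S or G2/M (605 against 216) and 1 in DN cells in S or G2/M (29 against 4). Of 181 member differences that were not called, 74 changed sign and 33 were called in at least 1 alternative.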
